A study of Mus musculus with 17 samples.

Results

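Accessible chromatin was described at the loci of 5 C/EBP transcription factors, Cebpa, Cebpb, Cebpd, Cebpe and Cebpg, in mouse bone marrow-derived macrophages (BMDMs). All peaks of 17 ATAC-seq peak lists that lay within 50 kb of the gene bodies were taken, and peaks that overlapped between lists were merged into elements. Of 99504 elements in the whole genome, 80 lay at these loci. The Cebpa window held 17, the Cebpb window 26, the Cebpd window 5, the Cebpe window 17 and the Cebpg window 19, and 4 elements lay in both the Cebpa and the Cebpg window. Of the 80 elements, 5 were promoters of the C/EBP genes, 2 were promoters of neighbouring genes and 73 were distal. Distal elements are named here by the gene and the distance of their strongest summit from its start site, counted as positive in the direction of transcription.

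C/EBP proteins are basic leucine zipper factors that bind DNA as dimers with each other and with related zipper proteins. Cebpa encodes a factor needed for the commitment of progenitors to the granulocyte and macrophage lineages. Cebpb and Cebpd encode factors known for inflammatory gene expression, with cytokine, prostaglandin and nitric oxide synthesis genes among their targets in macrophages. Cebpe encodes a factor of late granulocyte maturation, and Cebpg encodes a short family member that lacks the usual activation domain and works as a partner of other zipper proteins.

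The cells were grown from bone marrow of male mice of the strain C57Bl6/J, aged 6 to 12 weeks, and were differentiated for 7 days in medium conditioned by L929 cells, a source of macrophage growth factor. The mice were wild-type (WT) or Nur77-KO (KO). Nur77 is the nuclear receptor encoded by Nr4a1. The KO was made in the whole body, by deleting a loxP-flanked Nr4a1 with Cre under the CMV promoter, so the bone marrow also developed without Nur77. The labels tag the genotype of the KO samples as cre, whereas the study's methods describe KO mice bred free of Cre, and which holds for these samples was not tested. Cells of each genotype were stimulated with lipopolysaccharide (LPS), at 100 ng/ml, for 1 or 18 h, or were left unstimulated, which is 0 h here. Each group held 3 lists, except for WT at 1 h, which held 2, one of them named replicate 1-2 in the labels. That name may stand for replicates 1 and 2 pooled, which the sources do not say, and the list was counted as 1 replicate. The sources do not say whether the lists of a group came from separate mice, so p-values measure the spread between lists, which may be technical.

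Depth was very uneven. It was recovered from the lists as 0.720 to 9.75 background reads per kb at 0 h, 0.382 to 4.14 at 1 h and 1.10 to 8.38 at 18 h, and the number of C/EBP elements with a peak ran from 20 in a KO 18 h list to 60 in a WT 0 h list. Within 1 kb of the start sites of 8 macrophage marker genes, a summit was found for 8 of 8 genes in 15 to 17 lists. Of 8 neutrophil markers, Elane, Ltf, Ly6g, S100a9 and Retnlg had none in any list, whereas Mpo had one in 5 lists, Camp in 14 and S100a8 in 16. Of the T cell markers Cd3d had a summit in 17 lists and Cd3e, Cd4 and Lck in 0, and of the B cell markers described Ms4a1 had one in 16 lists and Cd79a in 0. Alb had none and Epcam had one in 4 lists. The part of other cells in the results was not tested, and a change in the share of cells cannot be told apart from a change within each cell. A peak at the Nr4a1 promoter was present in 14 lists, 6 of them from KO cells at 0 and 1 h, so this promoter does not check the genotype labels.

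Because depth differed, peaks were compared by rank. Inside each list, peaks were ordered by their p-value, with rank 1 for the strongest, and the rank score was log2(24389/rank). A peak at rank 24389, the length of the shortest list, or beyond it, and an absent peak, had a score of 0. An increase of 1 therefore means a rank number 2 times smaller. A score of 0 in a shallow list does not show that a site was closed. Elements with a rank of 24389 or better in at least 2 lists were tested, which held for 34139 elements of the genome and for 28 of the 80 C/EBP elements. The 28 comprised 4 C/EBP promoters, 2 neighbouring promoters and 22 distal elements. The filter admits elements that are strong at only 1 time of LPS, and such an element had to differ. Of the 80 elements, 13 had a peak in all 17 lists and 16 in a single list. The other 52 elements had such a rank in at most 1 list and entered no test. On this scale, of 5 macrophage marker promoters tested 1 was called higher and 3 lower at 1 h and 1 higher and 2 lower at 18 h against 0 h. Of all tested elements 13.8% were called higher and 14.3% lower at 1 h, and 10.8% and 12.8% at 18 h. Of the other markers tested, Camp was higher by 0.66 and 1.06 and Ms4a1 by 0.40 and 0.86 at 1 and 18 h, both without a rank within 24389 at 0 h and so without a test here, and Cd3d was lower by 0.71, called at 18 h only (limma adjusted p = 0.0456). S100a8 was not called at either time (-0.20 and 0.11). With single summits ranked separately, 8 macrophage markers were tested, with 1 higher and 4 lower at 1 h. At 18 h 0 of them were higher and 4 lower, and the shares over all summits are not given. The part of these promoters in the results below was not tested. The heatmap of rank scores shows the 28 elements over the 17 lists.

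**Figure D1:**
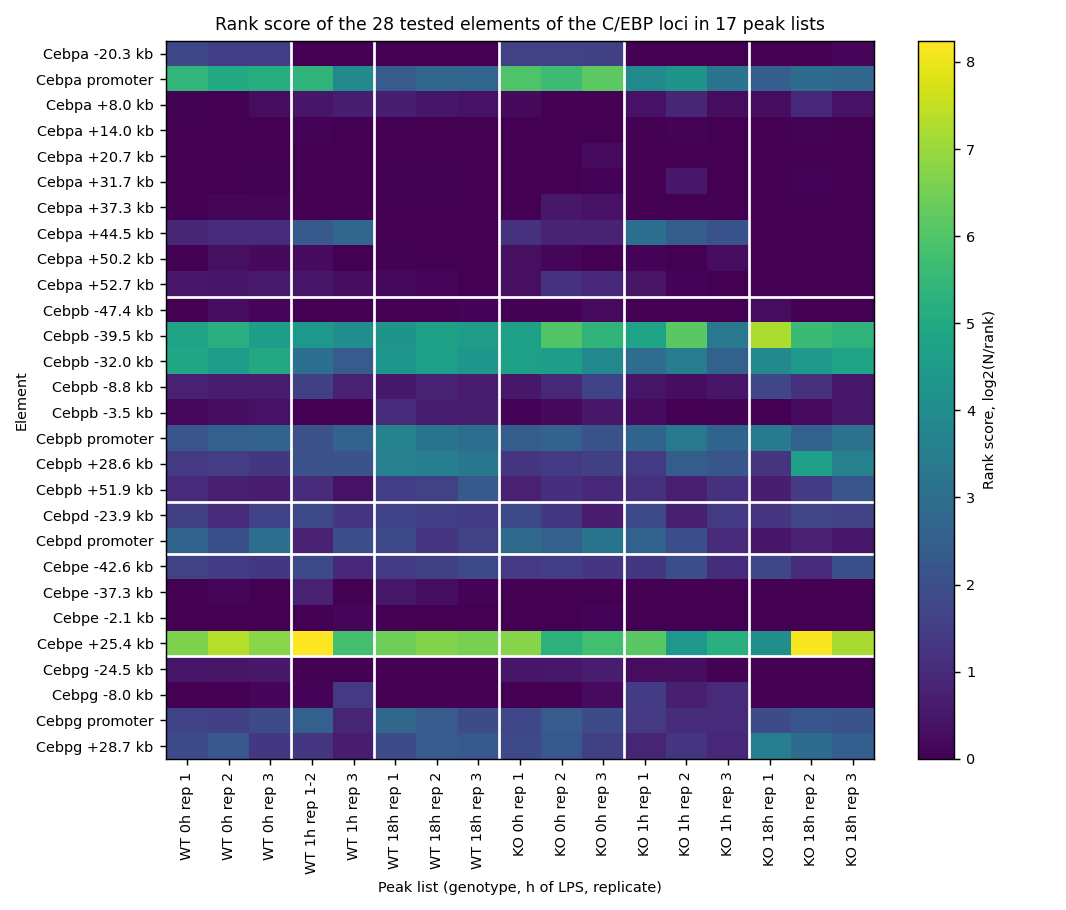
Rank score, log2(24389/rank), of the 28 tested C/EBP elements (rows) in the 17 peak lists (columns, ordered by genotype and hours of LPS), with brighter cells for better ranks. The Cebpa promoter and the Cebpb -39.5 kb and -32.0 kb elements score high in most columns, the Cebpa -20.3 kb element scores only at 0 h apart from 1 list at 18 h, and the Cebpa +44.5 kb element scores at 0 and 1 h.

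The sequences of 6 elements described below are given as the 201 bases centred on the strongest summit, from the GRCm38.p6 (mm10) genome, + strand. The first lies at the Cebpa start site, the next pair are distal elements whose ranks moved in unlike ways after LPS, the fourth lies at the Cebpd start site, and the last pair are distal elements of Cebpb. Cebpa, Cebpb and Cebpd are all read from the + strand. Capitals mark motif matches, on either strand, and are found only in the last pair. In the Cebpb +28.6 kb element they mark a C/EBP match (TTGCNNAA) followed by an NF-kB match, and in the Cebpb -39.5 kb element they mark an AP-1 match (TGACTCA).
Cebpa promoter, chr7:35119104-35119304: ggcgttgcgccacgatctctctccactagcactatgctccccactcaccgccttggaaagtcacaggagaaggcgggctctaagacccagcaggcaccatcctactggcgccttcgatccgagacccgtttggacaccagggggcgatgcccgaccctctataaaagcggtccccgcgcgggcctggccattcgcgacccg
Cebpa -20.3 kb, chr7:35098875-35099075: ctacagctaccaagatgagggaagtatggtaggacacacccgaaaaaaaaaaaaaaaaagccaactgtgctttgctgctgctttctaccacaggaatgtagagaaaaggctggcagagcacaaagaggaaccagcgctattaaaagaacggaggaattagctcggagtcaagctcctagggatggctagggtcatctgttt
Cebpa +44.5 kb, chr7:35163717-35163917: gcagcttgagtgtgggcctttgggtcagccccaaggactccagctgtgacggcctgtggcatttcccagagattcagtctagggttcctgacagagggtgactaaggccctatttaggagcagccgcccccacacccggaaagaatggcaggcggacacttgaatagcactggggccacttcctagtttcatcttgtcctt
Cebpd promoter, chr16:15887088-15887288: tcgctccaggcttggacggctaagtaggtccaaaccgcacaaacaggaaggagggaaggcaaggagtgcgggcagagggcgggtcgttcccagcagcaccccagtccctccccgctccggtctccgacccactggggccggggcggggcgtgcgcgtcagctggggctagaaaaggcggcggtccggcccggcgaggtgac
Cebpb +28.6 kb, chr2:167717419-167717619: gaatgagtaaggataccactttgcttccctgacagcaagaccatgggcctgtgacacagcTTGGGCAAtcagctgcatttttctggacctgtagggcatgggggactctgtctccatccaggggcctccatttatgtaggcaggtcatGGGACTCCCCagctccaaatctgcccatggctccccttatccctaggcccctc
Cebpb -39.5 kb, chr2:167649353-167649553: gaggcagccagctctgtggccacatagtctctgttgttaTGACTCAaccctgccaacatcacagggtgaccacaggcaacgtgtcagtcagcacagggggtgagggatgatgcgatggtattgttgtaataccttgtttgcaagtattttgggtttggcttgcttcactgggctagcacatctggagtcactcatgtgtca

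Around each summit, 100 bp to either side, both strands were searched for motifs. The C/EBP motif TTGCNNAA was found in 3 of the 28 tested C/EBP elements (Cebpb +28.6 kb, Cebpe -42.6 kb and Cebpa +14.0 kb) and in 11.2% of all tested elements. The AP-1 motif TGACTCA was found in 1 of 28, against 16.2% of all, and the NF-kB motif in 1 of 28, against 4.83% of all. A match to the cAMP response element TGACGTCA, the PU.1 motif GAGGAAGT or the Nur77 monomer motif AAAGGTCA (NBRE) was found in 0 of 28, and these were found in 1.22%, 7.71% and 1.05% of all tested elements. AP-1 and the cAMP response element both begin with TGAC, and no match can count for both. These matches describe the letters of these windows and no binding was measured.

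After LPS, chromatin at the Cebpa and Cebpd promoters lost rank, the Cebpb promoter and 2 elements downstream of Cebpb gained rank at 18 h, and several distal elements of Cebpa and Cebpg changed at 1 h. At 1 h against 0 h, with both genotypes pooled, 11 of the 28 elements were called at a limma adjusted p under 0.05, with 3 higher and 8 lower. Of all tested elements 13.8% were higher and 14.3% lower, against 10.7% and 28.6% of the C/EBP elements. At 18 h against 0 h 12 were called, 5 higher and 7 lower, with 10.8% and 12.8% of all tested elements. At 18 h against 1 h 9 were called, 6 higher and 3 lower, with 13.7% and 15.3% of all tested elements. The median difference of the 28 elements was -0.06, 0.01 and 0.01 in the order of these comparisons, beside -0.02, 0 and 0.02 over all tested elements. The comparisons share lists, so the counts are not independent of each other. Among the calls, Cebpa -20.3 kb and Cebpa +37.3 kb, each lower at 1 h and at 18 h, passed the filter only through the 0 h lists, so the sign of their differences was fixed and they are described without a test. With the exact permutation test and the same adjustment, 8, 7 and 5 elements were called, including at 1 h an element that limma did not call. Shares of all tested elements are not given for the exact test. The calls it did not make were those of Cebpa +37.3 kb at both times, of Cebpa +52.7 kb and the Cebpa and Cebpd promoters at 1 h, of the Cebpb promoter and Cebpg +28.7 kb at 18 h against 0 h, of Cebpb +28.6 kb and +51.9 kb at 18 h against both times, and of Cebpb -3.5 kb and the Cebpg promoter from 1 h to 18 h, with adjusted exact p of 0.0556 to 0.209. A stricter matching required a peak to cover 50% of the element to count. It ended 17 of the 32 calls and turned 2, and its values are given with the elements concerned. A narrower peak then scored 0 whatever its rank, so these values also depend on peak width. The plot of differences gives all 28 elements.

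**Figure D2:**
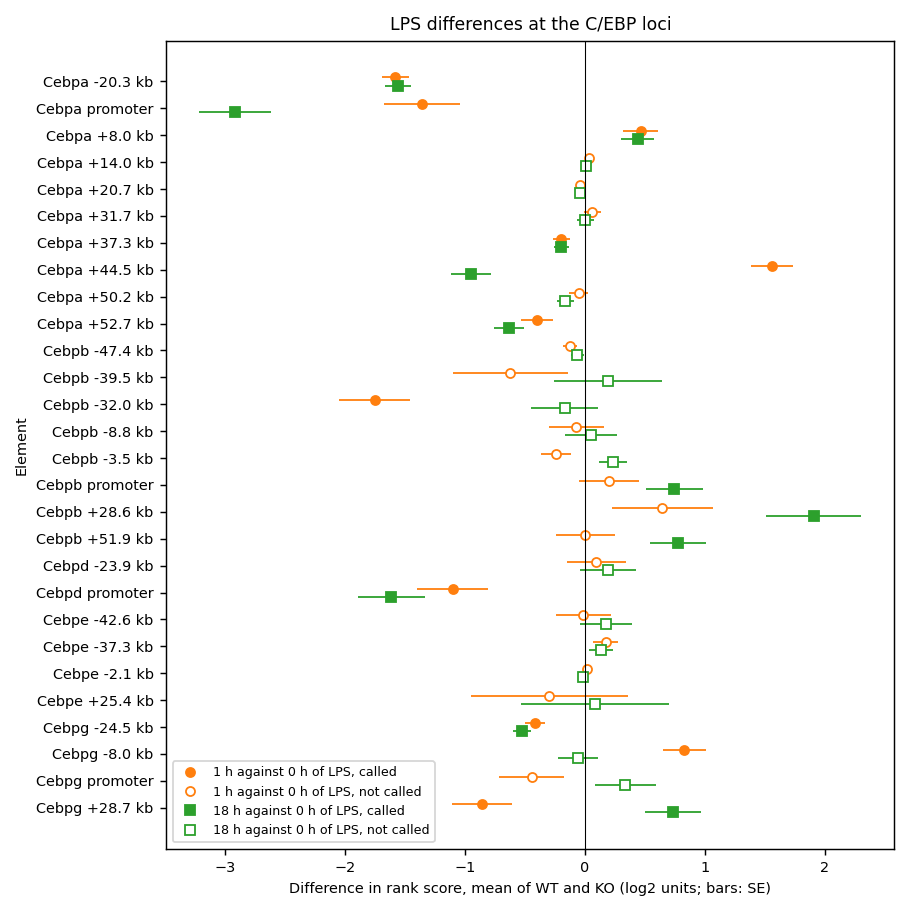
Difference in rank score (log2 units, bars are standard errors) at 1 h against 0 h (orange circles) and 18 h against 0 h (green squares) for the 28 tested C/EBP elements, both genotypes pooled, with filled symbols for a limma adjusted p under 0.05. The Cebpa promoter has the lowest value at 18 h, -2.92, the Cebpb +28.6 kb element the highest, 1.91, and the Cebpa +44.5 kb element lies on opposite sides of 0 at 1 h and 18 h.

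At the Cebpa promoter (gene ENSMUSG00000034957.10, chr7:35119293-35121928, + strand) a strong peak at 0 h weakened with time. The element spanned chr7:35117742-35121808 and had a peak in all 17 lists. Its rank was 572, 740 and 695 in WT at 0 h, 596 and 1634 at 1 h, and 4702, 3731 and 3824 at 18 h. In KO it was 392, 485 and 340 at 0 h, 1620, 1280 and 2762 at 1 h, and 4400, 3270 and 3706 at 18 h. Every 18 h list lay behind every 0 h and 1 h list, while at 1 h the WT list replicate 1-2 lay among the 0 h lists. The mean rank score in WT was 5.20 ± 0.19 at 0 h (SD, 3 lists), 4.63 ± 1.03 at 1 h (2 lists) and 2.59 ± 0.18 at 18 h (3 lists), and in KO it was 5.92 ± 0.26, 3.77 ± 0.57 and 2.70 ± 0.21 (3 lists each). The score fell by 1.36 ± 0.32 (SE) at 1 h (limma adjusted p = 0.0036, exact permutation p = 0.02). With the 50% cover that difference was -3.88 (adjusted p = 0.0142). Under that rule a narrow peak of any rank scores 0, so the larger value is not read as stronger support. The score fell by 2.92 ± 0.30 at 18 h (adjusted p = 3.32e-06, exact p = 0.005, the smallest the test can give). From 1 h to 18 h it fell by 1.56 ± 0.32 (adjusted p = 0.00119, exact p = 0.005), but was 0.20 higher (adjusted p = 0.994) with the 50% cover. Depth was alike in WT at 0 h and 18 h (5.11 to 9.75 and 4.62 to 8.38 background reads per kb), and the summit in these lists held 410, 317 and 606 reads at 0 h and 178, 120 and 87 reads at 18 h.

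The distal elements of Cebpa lay in intergenic sequence or in noncoding transcripts, and those called moved in both directions. The -20.3 kb element (chr7:35098340-35099381) was ranked 7114, 8732 and 8666 in WT and 8103, 7982 and 8354 in KO at 0 h. At 1 h no WT list had a peak there, and the KO lists had ranks 35268 and 30745 and no peak. At 18 h the ranks were 31360, 25076 and 32438 in WT, and in KO 2 lists had no peak and the other had rank 22024. Thus all 0 h lists lay ahead of all lists with LPS, and the score was 1.58 at 0 h, 0 at 1 h and 0.02 at 18 h as the mean of WT and KO. The element was within rank 24389 in 6 lists at 0 h, 0 at 1 h and 1 at 18 h, so it entered through its 0 h level and no test is given. With ranks capped at 10000 its score was only 0.30 lower at 1 h and at 18 h. In the deep WT lists the summit held 156, 109 and 214 reads at 0 h and 30, 25 and 13 reads at 18 h.

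The Cebpa +44.5 kb element (chr7:35163057-35164279) rose and then fell. Its ranks at 0 h were 13346, 12004 and 11938 in WT and 10918, 13993 and 13956 in KO. At 1 h they were 4926 and 3708 in WT and 3020, 4525 and 5812 in KO, all ahead of the 0 h lists. At 18 h WT had ranks 30566 and 33744 and 1 list with no peak, and no KO list had a peak. The score rose by 1.56 ± 0.18 at 1 h (limma adjusted p = 4.46e-06) and at 18 h fell by 0.95 ± 0.17 below the 0 h level (adjusted p = 0.000469), with an exact permutation p of 0.005 for each. No 18 h list was within rank 24389, and with uncapped ranks the difference at 18 h was -1.44 (adjusted p = 2.39e-06). With the 50% cover the difference at 18 h was -0.68 (adjusted p = 0.234), and with ranks capped at 10000 it was 0, since no 0 h or 18 h list ranked the element so high. The nearest start site belongs to Slc7a10, an amino acid transporter gene, so the element cannot be assigned to Cebpa from these data.

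Weaker elements of the Cebpa window changed by less. For those at +37.3, +50.2 and +52.7 kb too, the nearest start site is that of Slc7a10. The +52.7 kb element, in 16 lists, fell by 0.64 ± 0.13 at 18 h (limma adjusted p = 0.00146, exact p = 0.005). Its score at 1 h was 0.40 lower (adjusted p = 0.0343, exact p = 0.02), a call lost without any of 8 lists, when the difference was -0.41 to -0.31. That call was also lost with uncapped ranks (-0.48, adjusted p = 0.0621) and with depth in the fit (-0.50, adjusted p = 0.0598). With the replicate as a block it was lost too (-0.43, adjusted p = 0.0937). The +8.0 kb element was 0.47 higher at 1 h and 0.44 higher at 18 h (adjusted p = 0.0232 and 0.0259, exact p = 0.005 for both). Those calls were lost without any of 4 and of 6 lists, when the differences were 0.37 to 0.45 and 0.35 to 0.42, and with the 50% cover (0.34 and 0.39, adjusted p = 0.177 and 0.145). As a single summit it was 0.11 higher at 1 h (adjusted p = 0.565). The +37.3 kb element lies in the region of a described myeloid enhancer of Cebpa. It had a peak in 14 lists but a rank within 24389 in 4, all at 0 h, namely 22252 and 22190 in WT and 16940 and 18588 in KO. It entered through these 0 h lists, and its score was 0.20 lower at 1 h and at 18 h, or 0.045 lower with the 50% cover and 0.63 and 0.62 lower with uncapped ranks, with no test given. The +14.0, +20.7, +31.7 and +50.2 kb elements were tested and not called.

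At Cebpd (ENSMUSG00000071637.5, chr16:15887286-15891031, + strand) the promoter was the only element within the tested ranks, apart from the promoter of a neighbouring gene. The 3 distal elements, at -48.7, -10.0 and -8.8 kb, had no rank within 24389 in any list, and the -23.9 kb element is the promoter of Mzt2, with ranks of 6848 to 15292 and no call. The Cebpd promoter element spanned chr16:15886439-15891104. Its ranks in WT were 3924, 6030 and 3037 at 0 h, 14418 and 6218 at 1 h, and 6880, 10192 and 7862 at 18 h. In KO they were 3420, 4220 and 2622 at 0 h, 4180, 6174 and 12233 at 1 h, and 17260, 14306 and 16726 at 18 h. All 18 h lists lay behind all 0 h lists, and the KO 18 h lists lay behind the WT 18 h lists. The score fell by 1.62 ± 0.28 at 18 h (limma adjusted p = 0.000429, exact p = 0.005), whereas with the 50% cover it was 0.84 lower and not called (adjusted p = 0.0967). At 1 h it fell by 1.10 ± 0.30 (adjusted p = 0.00999, exact p = 0.02), but without WT 1 h replicate 1-2, the shallowest list, it was 0.80 lower and not called (adjusted p = 0.0846). With depth in the fit the difference at 1 h was -0.79 (adjusted p = 0.174), and with the 50% cover -0.84 (adjusted p = 0.0858).

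**Figure D3:**
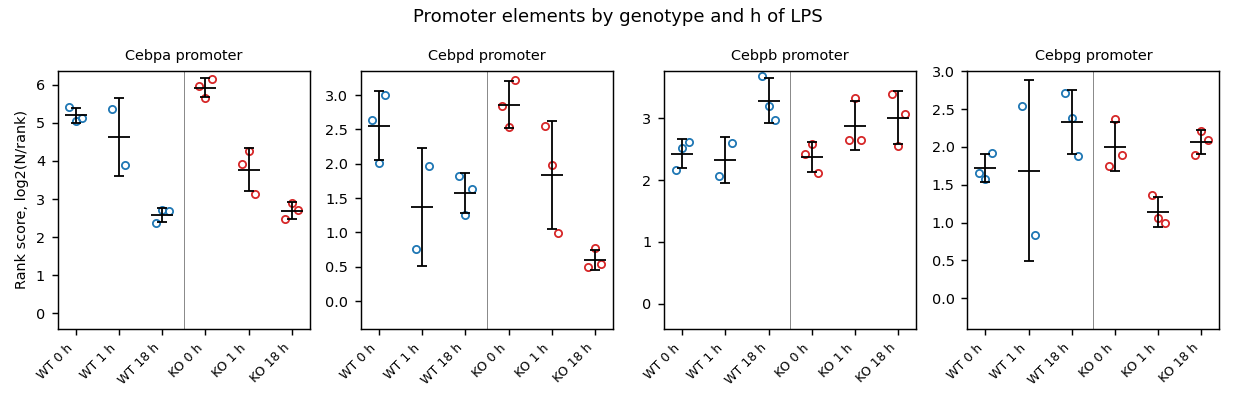
Rank score, log2(24389/rank), of the Cebpa, Cebpd, Cebpb and Cebpg promoters in each of the 6 groups (x axis, hours of LPS; WT blue, KO red), with points for single lists and bars for the mean ± SD of a group. The mean of the Cebpa promoter is 5.20 in WT and 5.92 in KO at 0 h and 2.59 and 2.70 at 18 h, and that of the Cebpd promoter is 2.55 and 2.86 at 0 h and 1.57 and 0.60 at 18 h.

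At Cebpb (ENSMUSG00000056501.3, chr2:167688915-167690418, + strand) the promoter moved the other way. Its element was 12368 bp long, chr2:167686358-167698725, since neighbouring peaks were joined. The ranks of its best peak were 5456, 4260 and 3980 in WT at 0 h, 5848 and 4039 at 1 h, and 1898, 2664 and 3109 at 18 h. In KO they were 4548, 4076 and 5637 at 0 h, 3888, 2416 and 3898 at 1 h, and 2311, 4150 and 2894 at 18 h. The 18 h lists were ahead of the 0 h lists apart from KO 18 h replicate 2, and the score rose by 0.75 ± 0.24 (limma adjusted p = 0.0296, exact p = 0.01). That call was lost without WT 0 h replicate 1 or 2, WT 18 h replicate 1 or KO 0 h replicate 3, when the difference was 0.64 to 0.77, and with the 50% cover (0.38, adjusted p = 0.664). At 1 h the difference was 0.20 (adjusted p = 0.619), and 0.07 to 0.33 without 1 list. With the 50% cover the difference at 1 h was -0.44 (adjusted p = 0.558).

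Single summits, ranked separately in a comparison added after the data were seen, resolved the long Cebpb element. The summit at +0.14 kb was 0.71 higher at 18 h (limma adjusted p = 0.0414). Other summits were within the ranks tested mostly at 1 time of LPS, and are described without a test. The summit at +0.77 kb, over the gene body, was within rank 26558, the length of the shortest list of summits, in 5 lists at 0 h, 1 at 1 h and 0 at 18 h. Beyond the gene, the summits at +4.13 and +4.87 kb were within it in 0 lists at 0 h, in 1 and 2 at 1 h, and in 6 of 6 lists at 18 h, with scores 0.90 and 0.78 higher at 18 h than at 0 h. The summit at +9.13 kb was higher by 1.20 at 18 h (adjusted p = 0.00382), with ranks of 9670, 7102 and 11547 in WT at 0 h and 5564, 4566 and 4700 at 18 h, and of 9805, 11092 and 13654 and then 2640, 5138 and 4948 in KO. All 18 h lists were ahead of all 0 h lists at that summit.

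**Figure D4:**
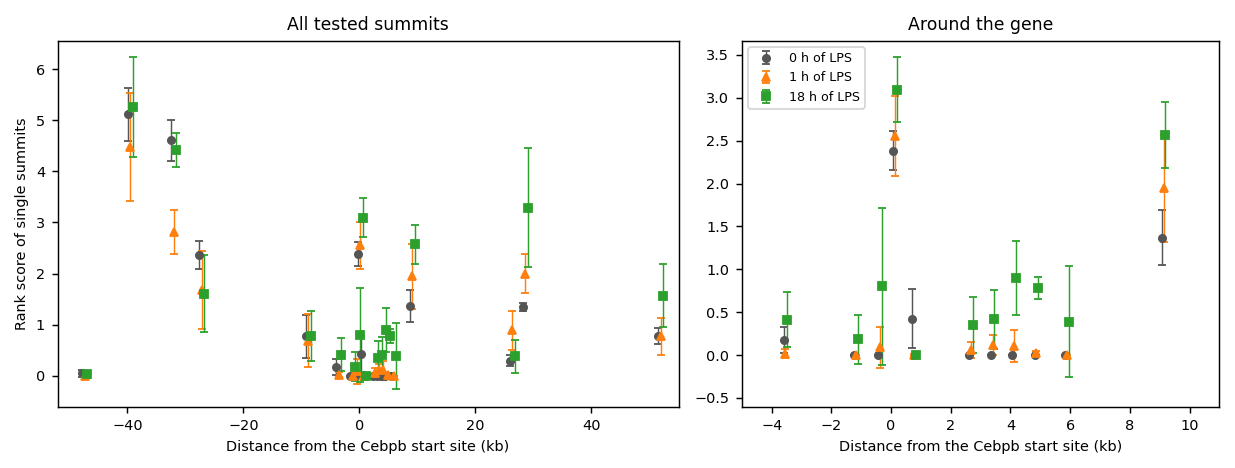
Mean rank score of single summits at 0, 1 and 18 h of LPS against their distance from the Cebpb start site in kb, for the whole window (left) and from -5 to 11 kb (right), with bars for the SD over the lists of a time. At 18 h the summits at +4.13, +4.87, +9.13 and +28.6 kb are higher than at 0 h, by 0.90, 0.78, 1.20 and 1.94.

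Of the distal elements of Cebpb, the best ranked lay upstream. The -39.5 kb element, in an intron of Tmem189 and of Gm20431, a transcript that spans it, had ranks from 164 to 2482 over the 17 lists and was not called at any time. The -32.0 kb element, in the same introns, was ranked 802, 1072 and 778 in WT at 0 h, 3059 and 4762 at 1 h, and 1215, 972 and 1210 at 18 h. In KO its ranks were 957, 1016 and 1644 at 0 h, 3170, 2182 and 4099 at 1 h, and 1586, 1108 and 861 at 18 h. All 1 h lists lay behind all others, and the score fell by 1.75 ± 0.30 at 1 h and rose by 1.58 ± 0.30 from 1 h to 18 h (limma adjusted p = 0.000259 and 0.000594, exact p = 0.005 for both). With the 50% cover the differences were -1.61 and 0.32 and neither was called (adjusted p = 0.187 and 0.907).

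Downstream, the +28.6 kb element, in an intron of the noncoding gene A530013C23Rik, was ranked 9262, 8732 and 9623 in WT at 0 h, 5848 and 5692 at 1 h, and 2020, 2076 and 2594 at 18 h. In KO its ranks were 10018, 9322 and 8354 at 0 h, 9178, 4525 and 5250 at 1 h, and 10273, 962 and 2030 at 18 h. The 18 h lists were ahead of all 0 h lists except for KO 18 h replicate 1, whose peaks were narrow (median width 135 bp, against 338 to 661 bp in the other lists). The score rose by 1.91 ± 0.40 at 18 h (limma adjusted p = 0.00196, exact p = 0.02), and by 2.39 without that list. From 1 h to 18 h it was 1.26 higher (adjusted p = 0.0317, exact p = 0.05), a call lost without any of 7 lists, when the difference was 0.89 to 1.27. With the 50% cover neither was called (1.46 and 1.92, adjusted p = 0.189 and 0.136). This is the element whose C/EBP and NF-kB matches are capitalised above.

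The +51.9 kb element of Cebpb was ranked 12398, 14649 and 15270 in WT at 0 h and 8497, 7897 and 4788 at 18 h, and 14334, 11350 and 12738 and then 14937, 8892 and 5354 in KO. It was 0.78 higher at 18 h than at 0 h (limma adjusted p = 0.0213, exact p = 0.02). That call was lost without WT 0 h replicate 3, WT 18 h replicate 3 or KO 0 h replicate 1, when the difference was 0.65 to 0.75, and with the 50% cover (1.00, adjusted p = 0.067), and it was 0.45 with ranks capped at 10000 (adjusted p = 0.0444). Against 1 h it was 0.77 higher at 18 h (adjusted p = 0.0252, exact p = 0.05), a call lost without WT 1 h replicate 3, WT 18 h replicate 3, KO 1 h replicate 2 or KO 18 h replicate 3, when the difference was 0.59 to 0.70, and it was 1.33 with the 50% cover (adjusted p = 0.0333) and 0.45 with ranks capped at 10000 (adjusted p = 0.0407). The -3.5 kb element, in 14 lists, was 0.48 higher at 18 h than at 1 h (adjusted p = 0.00711, exact p = 0.025). The -47.4 and -8.8 kb elements were tested and not called, and 18 further distal elements of Cebpb were too weak to test.

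**Figure D5:**
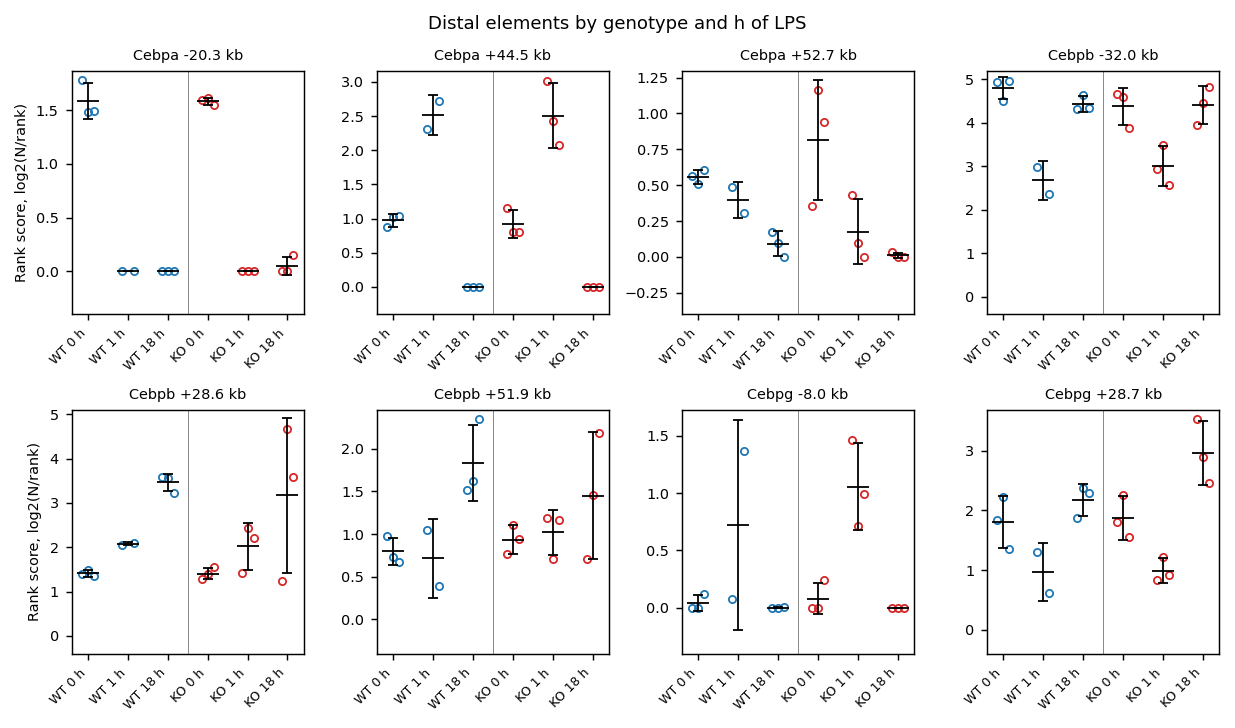
Rank score, log2(24389/rank), of the 8 distal C/EBP elements with the largest called LPS differences, in each of the 6 groups (x axis, hours of LPS; WT blue, KO red), with points for single lists and bars for the mean ± SD of a group. The Cebpa -20.3 kb element drops to 0 in WT after LPS, the Cebpa +44.5 kb element is highest at 1 h, at 2.51 in WT, and the Cebpb -32.0 kb and Cebpg +28.7 kb elements are lowest at 1 h. The sign of the Cebpa -20.3 kb calls was fixed, so they are no test.

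Cebpg (ENSMUSG00000056216.9, chr7:35046422-35056573, - strand) lies beside Cebpa on chromosome 7. Its promoter element, chr7:35055662-35057817, had ranks of 7738, 8216 and 6425 in WT at 0 h, 4204 and 13626 at 1 h, and 3710, 4700 and 6628 at 18 h. In KO the ranks were 7240, 4734 and 6560, then 9486, 11685 and 12233, then 6567, 5269 and 5702. The WT 1 h lists were far apart, with 1 of them behind every other list. The score was 0.78 ± 0.27 higher at 18 h than at 1 h (limma adjusted p = 0.0371, exact p = 0.04), a call lost without any of 8 lists, with the 50% cover (1.10, adjusted p = 0.132) and with ranks capped at 10000 (0.58, adjusted p = 0.0609). The difference was 0.36 when WT 1 h replicate 3 was left out (adjusted p = 0.279). Leaving out the other WT 1 h list gave 1.21 (adjusted p = 0.0011). Neither time was called against 0 h in the fit of group means (-0.45 and 0.34, adjusted p = 0.237 and 0.375), but the difference at 1 h was -0.87 without WT 1 h replicate 1-2 (adjusted p = 0.0114) and -0.022 without WT 1 h replicate 3 (adjusted p = 1).

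Of 16 distal elements assigned to Cebpg 3 were tested, and each was called. The +28.7 kb element, in an intron of Pepd, a dipeptidase gene, was ranked 6822, 5216 and 9566 in WT at 0 h, 9850 and 15882 at 1 h, and 6658, 4700 and 5004 at 18 h. In KO its ranks were 6964, 5090 and 8354, then 13650, 10441 and 12974, then 2110, 3270 and 4434. All 1 h lists lay behind all 0 h and 18 h lists. The score fell by 0.86 ± 0.25 at 1 h (limma adjusted p = 0.0152, exact p = 0.01). That call was lost without WT 1 h replicate 3, when the score was 0.69 lower, with the 50% cover (-0.53, adjusted p = 0.299) and with ranks capped at 10000 (-0.55, adjusted p = 0.077). From 1 h to 18 h it rose by 1.59 ± 0.25 (adjusted p = 0.000114, exact p = 0.005), whereas with the 50% cover it was 0.31 higher and not called (adjusted p = 0.671). At 18 h it was 0.73 higher than at 0 h (adjusted p = 0.03, exact p = 0.015), a call lost without any of 6 lists, when the difference was 0.62 to 0.74, and it was -0.21 (adjusted p = 0.744) with the 50% cover.

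The other tested elements of Cebpg lay upstream, towards Cebpa. The -8.0 kb element was ranked 23185 and 9462 in WT and 8870, 14876 and 12233 in KO at 1 h, while at 0 h the best rank was 20688. The WT list replicate 1-2, at 23185, lay among the 0 h lists and the other 1 h lists lay ahead of them. The score rose by 0.83 ± 0.18 at 1 h (limma adjusted p = 0.00226, exact p = 0.01), and by 0.50 without WT 1 h replicate 3. At 18 h the best rank was 24298, and the score fell by 0.89 from 1 h (adjusted p = 0.00123, exact p = 0.005), or by 0.56 without that list. With ranks capped at 10000 the differences were 0.05 and -0.05 and neither was called (adjusted p = 0.344 and 0.319), and with the 50% cover the later one was -0.75 (adjusted p = 0.0591). The -24.5 kb element had ranks of 17592, 17966 and 16560 in WT and 17319, 16940 and 15292 in KO at 0 h. After LPS its best rank was 19586 at 1 h and 26978 at 18 h, so all 0 h lists lay ahead. Its score fell by 0.42 ± 0.08 at 1 h and by 0.53 ± 0.08 at 18 h (adjusted p = 0.00101 and 0.000101, exact p = 0.005 for both). With uncapped ranks the difference at 18 h was -0.86 (adjusted p = 6.67e-05).

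At Cebpe (ENSMUSG00000052435.7, chr14:54710360-54712174, - strand) the promoter was weak. It had a peak in 8 lists, with ranks from 34245 to 48318, none within the tested ranks. These were 5 unstimulated lists, 1 list of 1 h and 2 lists of 18 h. The -2.1 kb element was within rank 24389 in 2 lists and the -37.3 kb element, in an intron of Slc7a8, in 6 lists, all of them WT. The -42.6 kb element, also in Slc7a8, an amino acid transporter gene, had a peak in all 17 lists with ranks of 6086 to 12996. None of these was called after LPS. The +25.4 kb element is the promoter of Acin1, a gene of RNA processing, with ranks from 80 to 1434 and no call.

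No C/EBP element was called between KO and WT in the fit of group means to all lists. Over all times 0 of 28 were called, beside 0.398% of all tested elements, and at 0, 1 and 18 h 0 were called, beside 0.179%, 1.06% and 0.694%. The difference between the LPS responses of KO and WT was called for 0 of 28 at 1 h and at 18 h, beside 0.105% and 0.00586% of all tested elements. At an unadjusted p under 0.05, limma gave 2 elements over all times, 1 at 0 h, 2 at 1 h and 5 at 18 h, and 2 for each difference of responses. The exact permutation test gave 1 over all times, 0 at each single time, where it cannot go below 0.1, and 2 and 1 for the differences of responses. Shares of all tested elements at this unadjusted threshold are not given, so these counts have no background and are not read as a result. The smallest limma adjusted p among the 28 elements was 0.331 over all times and 0.170 at 18 h.

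The differences between genotypes carried wide errors. At the Cebpa promoter KO was 0.73 higher at 0 h, with every KO list ahead of every WT list (limma adjusted p = 1), and the response at 1 h was 1.59 ± 0.63 lower in KO than in WT (adjusted p = 0.628, exact p = 0.03). At the Cebpd promoter KO was 0.97 ± 0.40 lower at 18 h, with all KO lists behind all WT lists (adjusted p = 0.296, exact p = 0.1, the smallest possible). Its 18 h response was 1.28 ± 0.56 lower in KO (adjusted p = 0.767, exact p = 0.025). At the Cebpb -39.5 kb element KO was 1.55 ± 0.64 higher at 18 h (adjusted p = 0.298), and 0.85 ± 0.38 higher over all times (adjusted p = 0.498). The Cebpb -3.5 kb element was 0.52 lower in KO at 18 h (adjusted p = 0.170). It was called there with the 50% cover (-0.79, adjusted p = 0.000803) and without KO 18 h replicate 3 (-0.66, adjusted p = 0.0479). The 50% cover scores a narrower peak as 0 whatever its rank. KO 18 h replicates 2 and 3 had peaks in this element at ranks 20443 and 16726. The Cebpg +28.7 kb element was 0.79 higher in KO at 18 h (adjusted p = 0.312). The KO 18 h lists had depths of 1.10 to 1.76 background reads per kb and the WT 18 h lists of 4.62 to 8.38, so that genotype and depth cannot be told apart at 18 h.

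Within each genotype the responses of the Cebpa promoter and the Cebpa +44.5 kb element had the same sign. The Cebpa promoter was 2.61 ± 0.42 lower at 18 h in WT and 3.23 ± 0.42 lower in KO. The Cebpa +44.5 kb element was 1.54 ± 0.26 higher at 1 h in WT and 1.58 ± 0.23 higher in KO. Both were called in each genotype by limma, while the exact permutation test within 1 genotype cannot go below 0.1. The Cebpd promoter fell by 2.26 ± 0.40 at 18 h in KO (limma adjusted p = 0.0011) and was not called in WT. The test of that difference is the 18 h response given above, which was not called.

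The promoters of genes that work with or on C/EBP proteins were taken from a list of 14, of which 10 were tested. At 1 h 1 was higher and 2 were lower, with a median difference of -0.56, beside 13.8% higher, 14.3% lower and a median of -0.02 over all tested elements. Trib1, a pseudokinase that directs C/EBP alpha to degradation, rose by 1.31 ± 0.39 at 1 h (limma adjusted p = 0.0193) and was 1.19 ± 0.37 lower than at 0 h at 18 h (adjusted p = 0.0274). Atf4, a stress response zipper factor, fell by 1.08 ± 0.38 and Fbxw7, a ubiquitin ligase subunit, by 1.07 ± 0.31 at 1 h (adjusted p = 0.0411 and 0.0165). As a single summit Atf4 was not called at 1 h (adjusted p = 0.0719). At 18 h against 0 h 0 were higher and Trib1 alone was lower, with a median of -0.34, beside 10.8%, 12.8% and 0 over all. From 1 h to 18 h Trib3, a relative of Trib1, and Dbp, a zipper factor of the circadian clock, were higher by 0.62 and 1.03 and Trib1 was lower by 2.50 (adjusted p = 0.0108, 0.0361 and 0.000132), with a median of 0.51, beside 13.7% higher, 15.3% lower and 0.02 over all.

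Of 15 known C/EBP target genes of myeloid cells 9 were tested. At 1 h 6 promoters were higher and 1 lower, with a median difference of 0.69, beside 13.8% higher, 14.3% lower and a median of -0.02 over all tested elements. Cd14, a co-receptor for LPS, rose by 1.84 ± 0.26 and Il6, a cytokine gene, by 1.61 ± 0.26 (limma adjusted p = 4.35e-05 and 0.000149). Among these calls Il1b, another cytokine gene, was within rank 24389 in 5 lists at 1 h, 1 at 18 h and 0 at 0 h, so its higher score at 1 h, by 1.26, is given without a test. Lyz2, which encodes lysozyme, fell by 1.13 ± 0.20 (adjusted p = 0.000389). At 18 h 5 were higher and 1 lower, with a median of 0.31, beside 10.8%, 12.8% and 0 over all. The median is the value of Csf3r, the receptor gene of a granulocyte growth factor, which was within rank 24389 in 4 lists, all at 18 h, so its sign was fixed. Nos2, the inducible nitric oxide synthase gene, was within that rank in 4 lists at 1 h, 6 at 18 h and 0 at 0 h, and its score was 1.71 higher at 18 h, also with no test given. The Il1b promoter was 0.01 higher than at 0 h. From 1 h to 18 h 2 targets were higher and 3 lower, with a median of -0.18, beside 13.7%, 15.3% and 0.02 over all. Csf3r was 1 of the 2 and Il1b 1 of the 3, and their signs were fixed here too. Neither list had a call between KO and WT over all times, and at an unadjusted p under 0.05 limma gave 2 regulators and 1 target and the exact test 2 and 0. The share of all tested elements at that unadjusted threshold is not given, so these counts have no background. Spi1, Csf1r and Tnf are not counted, because the best summit of their long elements lay over 1 kb from a start site. With single summits 11 regulators and 11 targets were tested, with 1 higher and 3 lower regulators and 7 higher and 1 lower targets at 1 h. The shares of all tested summits are not given, and the shares above are those of elements.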

How the data were processed

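ATAC-seq peak lists of 17 samples were analysed. The authors trimmed reads with cutadapt (2.6, per the submitters' processing notes), mapped them to mm10, removed duplicates and called peaks in each sample separately with snakeATAC. In the deposited lists, the score is the −log10 q-value times 10 as an integer, the deposited fold column is the ratio of summit pileup to background, and the deposited p-value and q-value columns are on the −log10 scale. The peak names carry a q-value threshold of 0.001 and a mapping quality of 20. These values depend on depth, so column 8, the −log10 p-value, served only to order the peaks of each list. Depth was recovered as the background level at which every fold and p-value gives whole reads, divided by the shortest peak width, and is a relative index. It spanned a ratio of 25.5.

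The 1001519 entries were collapsed to 808470 intervals, each with its best summit, and merged over lists (1 bp of overlap). Ties took their average rank, printed as a whole number. Rank scores of the 34139 tested elements were fitted with 6 group means in limma 3.58.1 (R 4.3.3, trended and robust variance), and p-values were adjusted by the Benjamini-Hochberg method over all tested elements, with calls under 0.05. The pooled LPS and genotype differences are means over genotypes or times. Two-sided exact permutation tests exchanged lists within a genotype for LPS and within a time for genotype. Their smallest p-value was 0.005 for pooled LPS comparisons and differences of responses, 0.00025 for KO over all times and 0.1 within 1 genotype or time. The scripts were tested on simulated data. Read counts were not used here, so the count-based comparison with DiffBind (3.0.15 in the notes) was not refitted.

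Gene positions came from GENCODE vM21 and sequences from the RefSeq copy of GRCm38.p6, and every peak lay inside its chromosomes. A promoter element had its best summit within 1 kb of the start of a coding transcript. Elements were named if they were promoters of the 5 genes, called in any comparison, or among the 3 best-ranked distal elements of a gene. The genes, lists and tests were chosen with earlier results of these data known. The result for 1 marker gene is not reported here.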

Additional observations from a re-analysis of the deposited data

How the results depend on the processing

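The LPS calls depended on how peaks were matched between lists. The counts of LPS calls in this section include those of Cebpa -20.3 kb and Cebpa +37.3 kb at 1 h and 18 h. Their signs were fixed, so they add no support where they are counted as kept. Of 32 called LPS differences, 19 were called whichever list was left out, and 8 were called under every alternative that tested them. Of these 8, the calls of Cebpa -20.3 kb at 1 h and 18 h have a fixed sign and count for nothing. The other 6 were Cebpa +44.5 kb at 1 h and from 1 h to 18 h, Cebpa +52.7 kb and the Cebpa promoter at 18 h, and Cebpg -24.5 kb at 1 h and 18 h. With ranks capped at 10000, Cebpa +52.7 kb and Cebpg -24.5 kb were not tested. At 1 h against 0 h 5 elements were called with ranks capped at 10000 and 6 when a peak had to cover 50% of the element, in place of 11, with 16 and 23 elements tested in place of 28. Of the 23 calls that the cap of 10000 tested, 18 held. At 18 h against 0 h these settings gave 7 and 4, and the exact permutation test 7, in place of 12. At 18 h against 1 h the 50% cover gave 3 and the exact test 5, in place of 9. The 50% cover reversed the Cebpa promoter from 1 h to 18 h (0.20, limma adjusted p = 0.994), the Cebpb promoter at 1 h (-0.44, adjusted p = 0.558) and the Cebpg +28.7 kb element at 18 h (-0.21, adjusted p = 0.744). The cause was not tested. It also called the Cebpb -3.5 kb element lower in KO, 1 element over all times (-0.32) and 1 at 18 h (-0.79). Leaving out 1 list at a time gave 8 to 12, 8 to 12 and 6 to 9 LPS calls. For KO against WT it gave 0 to 1 calls over all times, 0 to 1 at 0 h, 0 to 3 at 1 h and 0 to 1 at 18 h, and 0 to 2 and 0 to 0 for the differences of responses. Without WT 1 h replicate 3, the remaining WT 1 h list, the shallowest of all, was assumed to vary like the other groups. The 1 h calls were then the Cebpg promoter (-1.40), Cebpg -8.0 kb (0.98) and Cebpe -37.3 kb, which was also called over all times. The 6 lists that ranked Cebpe -37.3 kb within the cap were all WT, so its sign was fixed and its calls are no test. In the 1 h responses it and the Cebpa promoter were called, the latter 2.31 lower in KO (adjusted p = 0.0499). The remaining genotype calls without a list were Cebpa +37.3 kb at 0 h without KO 0 h replicate 1 (0.37) and Cebpb -3.5 kb at 18 h without KO 18 h replicate 3 (-0.66). With log2 depth as a covariate 27 of 32 calls held. Those lost were Cebpa +52.7 kb, Cebpa +8.0 kb and the Cebpd promoter at 1 h, and Cebpb +51.9 kb and the Cebpg promoter from 1 h to 18 h. Uncapped ranks kept 31, merging only peaks within the cap kept 32, a filter of at least 5 lists kept 30 of 30, and single summits, added after the data were seen, kept 29. Lists with the same replicate number did not deviate together (mean r = -0.02 over 35 pairs, range -0.23 to 0.21, against 0.01 for other pairs), so the numbers do not pair them. With the replicate as a block, 9, 12 and 8 LPS calls and 0 genotype calls were made. The block gained the Cebpg promoter at 1 h (-0.82, adjusted p = 0.0321) and lost Cebpa +37.3 kb, Cebpa +52.7 kb and the Cebpd promoter at 1 h and Cebpb +28.6 kb from 1 h to 18 h.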
